A study of Mus musculus with 2 samples.

Results

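Ferritin and the genes of cellular iron handling were described in RNA from the thymus of newborn mice. The set holds 10 genes of the 43346 mouse gene IDs in the deposited tables, chosen by name from knowledge of iron biology: Ftl1, Fth1, Pcbp1, Pcbp2, Tfrc, Slc11a2, Slc40a1, Hmox1, Aco1 and Ireb2. All 10 were found by gene ID without version and named from the mouse GENCODE annotation M21 on GRCm38, the build also called mm10. Both libraries belong to 1 group, the postnatal day 0 thymus of strain B6NCrl mice, for which the labels name no treatment, and each was made from 13 pg of total RNA longer than 200 nt with spike-ins. The library called replicate 2 is labelled as pup 7 and the one called replicate 1 as pup 6. The labels also give them a common donor entry, so whether they come from separate animals is not settled. Differences between them mix those of pup, if the animals differ, RNA handling and library. The RNA, per the labels 1 cell-equivalent, was taken from whole tissue, and fewer cells of a type and less RNA per cell cannot be told apart. With no second condition there is no test and no p-value, and every difference below is one between these libraries.

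Iron is needed for haem, for iron-sulphur clusters and for DNA synthesis, and free iron is harmful, so cells store what they do not use inside a shell of ferritin built from heavy and light subunits. Iron bound to transferrin enters through the transferrin receptor (Tfrc), crosses the endosome membrane through the divalent metal transporter (Slc11a2), is handed to ferritin by poly(rC)-binding chaperones and leaves the cell through ferroportin (Slc40a1). Haem oxygenase 1 (Hmox1) frees iron from haem. The iron regulatory proteins, encoded by Aco1 and Ireb2, bind a hairpin called the iron-responsive element when iron is scarce. A bound element in the 5′ untranslated region blocks translation, as in ferritin and ferroportin, and bound elements in the 3′ untranslated region of Tfrc protect that transcript from decay. In the thymus, dividing thymocytes are known to need transferrin iron, and macrophages that clear dying thymocytes carry ferroportin and haem oxygenase 1.

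The element itself was looked for in the reference transcripts of the 10 genes, since it is the sequence through which several of their mRNAs are known to respond to iron. The letters searched on the sense strand were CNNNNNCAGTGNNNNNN, with the 5 bases before the loop able to pair with the 5 after it, G with T allowed. The letters alone were in 42.5% of 141767 GENCODE M21 transcripts, and the letters with 5 of 5 pairs in 0.628% of them (890 transcripts, 0.808% of 55450 genes). Of the 10 genes, 4 had such a match, Ftl1, Fth1, Slc40a1 and Tfrc. These genes were chosen for roles that include the element, so their matches are a description. The windows are 29 bases long and run 5′ to 3′, and the capitals mark the bulged C and the 6-base loop.
Ftl1-201, 5′ untranslated region: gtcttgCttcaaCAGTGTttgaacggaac
Fth1-201, 5′ untranslated region: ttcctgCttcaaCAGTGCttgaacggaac
Slc40a1-201, 5′ untranslated region: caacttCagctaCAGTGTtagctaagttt
Tfrc-201, 3′ untranslated region, match 1: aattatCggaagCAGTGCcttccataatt
Tfrc-201, match 2: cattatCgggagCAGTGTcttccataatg
Tfrc-201, match 3: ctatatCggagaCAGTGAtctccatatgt
Tfrc-201, match 4: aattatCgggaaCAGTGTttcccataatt

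The Ftl1 window lies on the minus strand at chr7:45459779-45459807, and 153 bases separate its 17-base core from the first coding base. The Fth1 window lies on the plus strand at chr19:9982732-9982760, with 115 bases between core and coding start. The stop codon is not counted as coding here. The cores of both ferritin subunits differed in 1 of 17 bases, while the Slc40a1 core differed from that of Ftl1 in 6 bases. The Slc40a1 window is on the minus strand at chr1:45925465-45925493, with 207 bases between core and coding start. All of the Tfrc windows are on the plus strand, at chr16:32631219-32631247, chr16:32631598-32631626, chr16:32631663-32631691 and chr16:32631710-32631738. Between the coding part and their cores lie 891, 1270, 1335 and 1382 bases, and the cores differed from one another in 2 to 6 bases. No core with 5 of 5 pairs was found in Slc11a2, Pcbp1, Pcbp2, Hmox1, Aco1 or Ireb2, which says only that these letters with these pairs are not in their reference transcripts.

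A looser search that also took 4 of 5 pairs, chosen after the data were seen, had matches in 5.16% of transcripts and added Slc11a2 and Pcbp2. The Slc11a2 match is in the 3′ untranslated region of Slc11a2-205, the transcript form in which an element is known, on the minus strand at chr15:100395153-100395181, with 40 bases between coding part and core. It is shown because it tells this form from Slc11a2-201, which had no match.
Slc11a2-205, 3′ untranslated region: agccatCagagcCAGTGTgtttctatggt
The Pcbp2 match lies inside the coding part and across an exon junction.

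**Figure D1:**
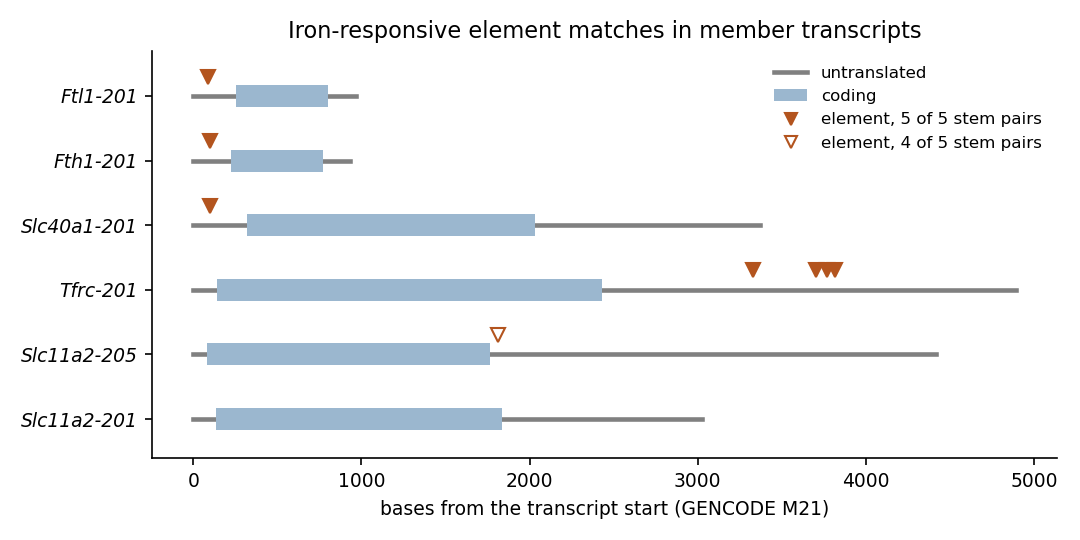
Positions of iron-responsive element matches (triangles) along 6 reference transcripts, in bases from the transcript start, with the coding part as a box and untranslated parts as a line. The matches of Ftl1-201, Fth1-201 and Slc40a1-201 come before the coding part, those of Tfrc-201 and Slc11a2-205 after it, and Slc11a2-201 has none.

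Replicate 2 had 32980032 expected counts, 31902773 of them in mouse genes, and replicate 1 had 27003123, with 25999043 in mouse genes. Mouse genes with 1 or more counts numbered 11764 in replicate 2 and 10275 in replicate 1. A count of 0 allows up to 3 counts at 95% (a one-sided limit, while the intervals are two-sided), a floor of 0.0940 counts per 1000000 mouse counts in replicate 2 and 0.115 in replicate 1. The reads carry no molecular identifiers in the tables, so floors and intervals cover counting error only. Levels are given as TPM, transcript abundance per base of length, rescaled to a sum of 1000000 over mouse genes. All 20 T-lineage markers were read in both libraries, with summed levels of 17338 TPM in replicate 2 and 17472 TPM in replicate 1, and 11 of 12 thymic epithelium markers were read in both. Among all mouse genes read in either library, 59.8% were read in both. Of the T-lineage markers, 0 were 4-fold or more apart between the libraries. Of the 12 epithelium markers, 5 were (41.7%), 4 higher and 1 lower in replicate 2, against 47.4% of mouse genes averaging 10 or more counts. The T-lineage markers averaged 1639 to 80712 counts, and such gaps are fewer among genes with more counts. Of all genes averaging 1000 to 3000 counts 50.7% were 4-fold apart, and of those with 3000 to 10000 counts 18.6%. The shares were 2.43% at 10000 to 30000 counts and 0.0% at 30000 or more.

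Ferritin made up almost all of the summed TPM of the 10 genes in both libraries. Ftl1 and Fth1 together reached 6584 TPM in replicate 2 and 8598 TPM in replicate 1 (7591 ± 1424, SD, n = 2). Ferritin was thus 94.4% and 97.5% of the summed TPM of the 10 genes, and 0.658% and 0.860% of all mouse TPM. The other 8 genes summed to 392 TPM in replicate 2 and 218 TPM in replicate 1 (305 ± 123).

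Ftl1, the light subunit that helps the mineral core form (ENSMUSG00000050708, minus strand, chr7:45457944-45459884), had 83302 expected counts and 4153 TPM in replicate 2, and 88102 counts and 4962 TPM in replicate 1. Its mean of 4557 ± 573 TPM was the 14th highest of all mouse gene IDs, and its rank was 16 in replicate 2 and 12 in replicate 1. Fth1, the heavy subunit that oxidises iron as it enters the shell (ENSMUSG00000024661, plus strand, chr19:9980598-9985098), had 43057 counts and 2431 TPM in replicate 2, and 56975 counts and 3636 TPM in replicate 1. Its mean was 3033 ± 852 TPM, rank 28. Ftl1 was above Fth1 in both libraries, and the 2 values of each gene did not overlap. Heavy over light subunit RNA was 0.585 in replicate 2 and 0.733 in replicate 1 (0.659 ± 0.104).

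Both subunits were lower in replicate 2, by small amounts for these libraries. The log2 ratio of (TPM + 1) in replicate 2 over replicate 1 was -0.26 for Ftl1 and -0.58 for Fth1, against a median of 0.17 over the 10797 mouse genes averaging 10 or more counts. As shares of mouse counts, replicate 2 held 0.771 times the Ftl1 of replicate 1, with an exact 95% interval of 0.763 to 0.778, and 0.616 times the Fth1, with 0.608 to 0.624. No gene among the 80 averaging 30000 or more counts was 4-fold apart (0.0%), and Ftl1 and Fth1 are among them.

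**Figure D2:**
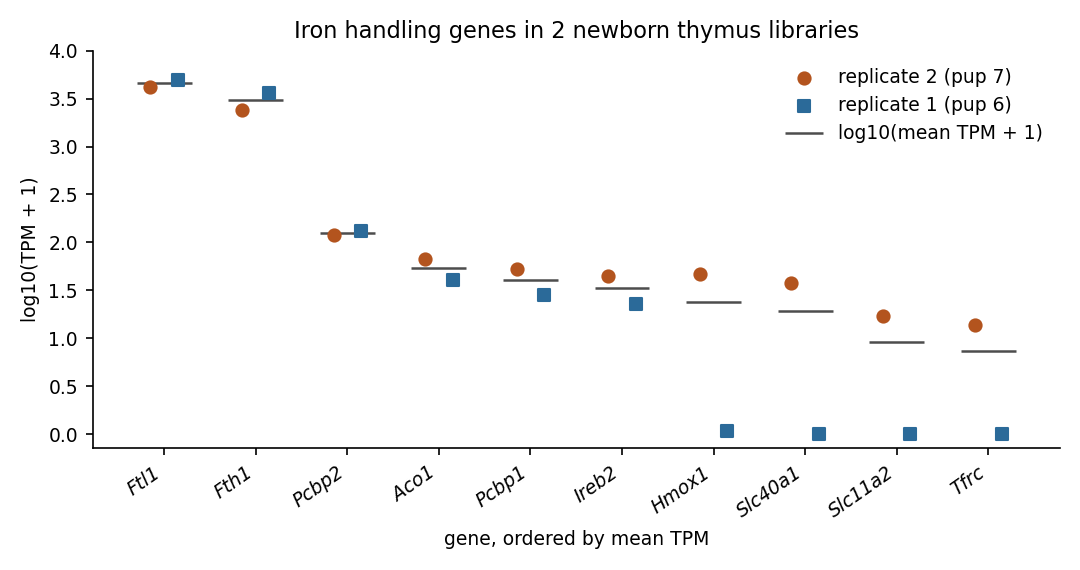
Level of each iron handling gene, as log10 of (TPM + 1), in replicate 2 (circles) and replicate 1 (squares), with a line at the mean of the 2 libraries and genes ordered by it. Ftl1 and Fth1 stand far above the rest, and Hmox1, Slc40a1, Slc11a2 and Tfrc are at or near 0 in replicate 1.

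Other gene models share ferritin sequence, and they bear on how exact these levels are. A microRNA model, Gm22133, lies inside Ftl1 on the same strand (chr7:45458089-45458197), and its 109 bases are identical to bases 715 to 823 of Ftl1-201, 88 of them coding. It is shorter than the 200 nt that the RNA was selected to exceed. It had 977 counts in replicate 2 and 1042 in replicate 1, which was 1.17% and 1.18% of the Ftl1 count. Per base of effective length it had 97.7 and 104 counts in replicates 2 and 1, and Ftl1 had 95.9 and 101. Its effective length of 10 bases turned those counts into 4230 TPM in replicate 2 and 5098 TPM in replicate 1, or 1.02 and 1.03 times the TPM of Ftl1. Whether any of these reads came from a separate small RNA was not tested.

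Of 13 ferritin-named copies elsewhere in the genome, 10 had 0 counts in both libraries and 1 had 10 or more. That copy, Ftl1-ps1 on chromosome 13, had 1550 counts in replicate 2 and 1829 in replicate 1, or 1.86% and 2.08% of the Ftl1 count, and 81.6 and 108.8 TPM. Its posterior SD, the error of the authors' estimate, was 59.1 and 66.2 counts in replicates 2 and 1, close to the 66.4 and 73.0 counts of Ftl1. These errors are far below either gene's count. Adding the copies and inner models to their parent genes gave a ferritin sum of 7735 TPM and a heavy over light ratio of 0.639.

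The chaperones that carry iron to ferritin were both read in both libraries. Pcbp2 (ENSMUSG00000056851, plus strand, chr15:102470539-102500061) had 7572 counts and 119.7 TPM in replicate 2, and 7252 counts and 129.0 TPM in replicate 1 (124 ± 6.57). It was the steadiest of the 10 genes, with a log2 ratio of -0.11. Pcbp1, encoded by a gene without introns (ENSMUSG00000051695, minus strand, chr6:86524492-86526321), had 2066 counts and 51.7 TPM in replicate 2, and 958 counts and 27.1 TPM in replicate 1 (39.4 ± 17.4), a log2 ratio of 0.91. Pcbp2 was above Pcbp1 in both libraries, 2.32-fold in replicate 2 and 4.76-fold in replicate 1. The antisense gene 1600020E01Rik overlaps 75 bases of Pcbp1 and had 624 counts in replicate 2 and 0 in replicate 1. Whether counting used strand is not given, so reads from the shared bases cannot be assigned.

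The iron regulatory proteins were read at moderate levels in both libraries and were higher in replicate 2. Aco1, whose protein is a cytosolic aconitase when it holds an iron-sulphur cluster (ENSMUSG00000028405, plus strand, chr4:40143081-40198338), had 4912 counts and 66.1 TPM in replicate 2, and 3007 counts and 39.9 TPM in replicate 1 (53.0 ± 18.6, log2 ratio 0.72). Ireb2, whose protein is degraded when iron is plentiful (ENSMUSG00000032293, plus strand, chr9:54863789-54912530), had 5791 counts and 43.9 TPM in replicate 2, and 2511 counts and 21.5 TPM in replicate 1 (32.7 ± 15.8, log2 ratio 1.00). Aco1 was above Ireb2 in both libraries per length, 1.51-fold in replicate 2 and 1.85-fold in replicate 1.

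The genes that move iron into and out of the cell, and Hmox1, were read in replicate 2 and hardly or not at all in replicate 1. Tfrc, the transferrin receptor (ENSMUSG00000022797, plus strand, chr16:32608920-32632794), had 1316 counts and 12.7 TPM in replicate 2, and 0 counts in replicate 1, at least 357-fold higher in replicate 2 against a floor of 3 counts per library. The lower end of its exact two-sided 95% interval, which also takes in the counting error of replicate 2, was 290.3-fold. Slc11a2 (ENSMUSG00000023030, minus strand, chr15:100387898-100425072) had 503 counts and 16.2 TPM in replicate 2, and 0 counts in replicate 1, at least 137-fold higher, with 110.7-fold as the lower end of that interval. Slc40a1, the only iron exporter known in mammals (ENSMUSG00000025993, minus strand, chr1:45908068-45926523), had 2751 counts and 36.4 TPM in replicate 2, and 1 count and 0.0107 TPM in replicate 1. The ratio of its count shares was 2242, with an exact 95% interval of 402 to 88583.

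Hmox1 (ENSMUSG00000005413, plus strand, chr8:75093621-75100589) had 1577 counts and 45.3 TPM in replicate 2, and 1 count and 0.0749 TPM in replicate 1. The ratio of its count shares was 1285, with an interval of 230 to 50793. On the log2 (TPM + 1) scale, the ratios were 3.77 for Tfrc, 4.10 for Slc11a2, 5.21 for Slc40a1 and 5.43 for Hmox1. With these spreads the means are 6.33 ± 8.96, 8.09 ± 11.4, 18.2 ± 25.8 and 22.7 ± 32.0 TPM in that order, and the SD exceeds the mean in each.

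These 4 genes were 4-fold or more higher in replicate 2, and none was 4-fold lower. Over all mouse genes averaging 10 or more counts, 47.4% were 4-fold or more apart, 27.3% higher and 20.2% lower in replicate 2, so 4 of 10 is near the share among all genes. In total 7 of the 10 were higher in replicate 2 by any amount, against 53.2% of all genes, and the median log2 ratio was 0.95, against 0.17. The share of genes with large gaps was lower among genes with a higher mean expected count. Among genes averaging 100 to 1000 counts, which include Tfrc, Slc11a2 and Hmox1, 77.5% were 4-fold apart and 38.1% had 3 or fewer counts in replicate 1. Among genes with 1000 to 3000 counts, which include Slc40a1 and Pcbp1, the shares were 50.7% and 18.7%, and among those with 3000 to 10000, which include Ireb2, Aco1 and Pcbp2, 18.6% and 2.96%.

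**Figure D3:**
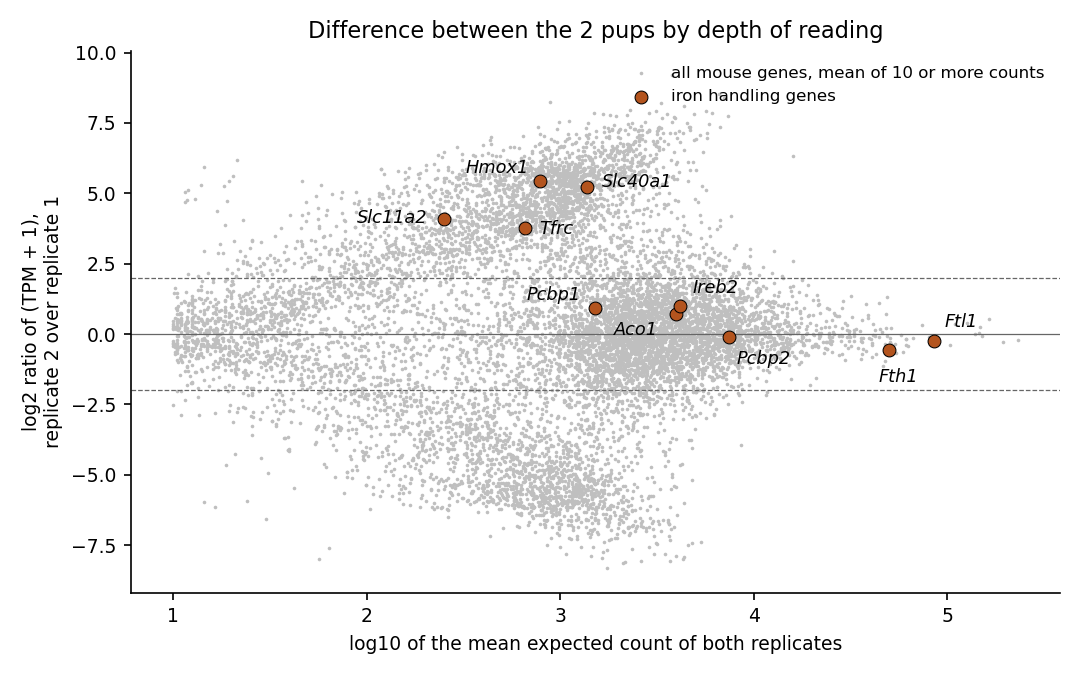
Log2 ratio of (TPM + 1), replicate 2 over replicate 1, against log10 of the mean expected count, for mouse genes averaging 10 or more counts (grey) and the 10 iron handling genes (large points), with dashed lines at 4-fold. Ftl1 and Fth1 lie near 0 at the right, and Tfrc, Slc11a2, Slc40a1 and Hmox1 lie in the cloud of genes far above 0 at lower counts.

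Macrophages are a known site of Hmox1 and Slc40a1, and single markers of theirs differed between the libraries in both directions. Of 16 macrophage markers, 9 were read in both libraries, 2 only in replicate 2, 1 only in replicate 1 and 4 in neither, and their summed level was 1178 TPM in replicate 2 and 597 TPM in replicate 1. Of 12 averaging 10 or more counts, 5 were 4-fold higher and 2 were 4-fold lower in replicate 2 (58.3% apart, against 47.4% of all genes). Lyz2 had 2602 counts in replicate 2 and 43 in replicate 1, and Mertk and Mrc1 had 1259 and 2303 counts in replicate 2 and 0 in replicate 1. Adgre1 and Csf1r went the other way, with 0 and 1 counts in replicate 2 and 2630 and 1051 in replicate 1. Spic, Cd5l, Cd14 and Itgam had 0 counts in both.

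Red cell precursors are a known site of Tfrc, and 9 of 15 erythroid markers were read in both libraries. Their summed level was 9426 TPM in replicate 2 and 3528 TPM in replicate 1, most of it globin RNA, while Klf1, Gata1, Tal1 and Hbb-y had 0 counts in both. The part of either cell type in the differences of the iron handling genes was not tested.

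Ordered by mean level, Ftl1 and Fth1 were followed by Pcbp2, Aco1, Pcbp1, Ireb2, Hmox1, Slc40a1, Slc11a2 and Tfrc. The values of Fth1 and Pcbp2, and those of Pcbp2 and Aco1, did not overlap between genes, and their means were 3.42 and 3.85 times the larger SD apart. From Aco1 down, the values of each gene overlapped with those of the next, and the means were 0.140 to 0.733 times the larger SD apart. Hmox1 was above Ireb2 in replicate 2 and below it in replicate 1, and Slc11a2 and Tfrc were both at 0 in replicate 1 and so had no order there.

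The transcript tables showed which forms carried the reads. For Fth1, Ireb2 and Pcbp1, which have 1 transcript in the tables, that transcript held all of the TPM. Ftl1-201 held 99.89% of Ftl1 TPM in replicate 2 and 99.97% in replicate 1. For Ftl1 and Fth1 that was the reference transcript with the 5′ element shown above. Fth1-201 is 866 bases long in the deposited tables and 929 in M21, so the deposited model may end elsewhere than the one searched, whereas the lengths of Ftl1-201, Slc40a1-201, Tfrc-201 and Slc11a2-205 are the same in both. Slc40a1-201, which has the 5′ element, held 99.9% of Slc40a1 TPM in replicate 2. Tfrc-201, the coding form with the 3′ elements, had 1158 of the Tfrc counts in replicate 2 and 82.7% of the TPM, and Tfrc-204, a form with a retained intron, had 155 counts.

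Slc11a2 was split in replicate 2. Slc11a2-205, the form with the 4-of-5 match, had 320 counts with a posterior SD of 10.0, while Slc11a2-201, the form with no match, had 0 counts with a posterior SD of 4.40. The retained-intron form Slc11a2-206 had 159 counts, and since it is 709 bases long it took 69.9% of the TPM. Slc11a2-205 took 63.6% of the counts and 19.9% of the TPM, so the TPM of this gene rests mostly on a short form.

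Pcbp2, whose total was steady, was split differently in the libraries. Pcbp2-201 had 5139 counts in replicate 2 and 3962 in replicate 1, which was 67.1% and 54.3% of Pcbp2 TPM. Pcbp2-203 had 2433 counts in replicate 2 and 46.9 in replicate 1, and Pcbp2-202 had 0 counts in replicate 2 and 3243 in replicate 1. The posterior SDs of these estimates ran up to 207 counts, well under the differences for Pcbp2-202 and Pcbp2-203. Aco1-201 had 83.9% of Aco1 TPM in replicate 2 and 98.8% in replicate 1, and the 638-base Aco1-202 had 131 counts in replicate 2 and 0 in replicate 1. That short form lowered the effective length of Aco1 to 3217 bases in replicate 2, against 3691 in replicate 1, and the ratio of Aco1 count shares, 1.33, was below its TPM ratio of 1.66. The 1 count of Hmox1 in replicate 1 was given to another form than Hmox1-201, which held all 1577 counts in replicate 2.

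**Figure D4:**
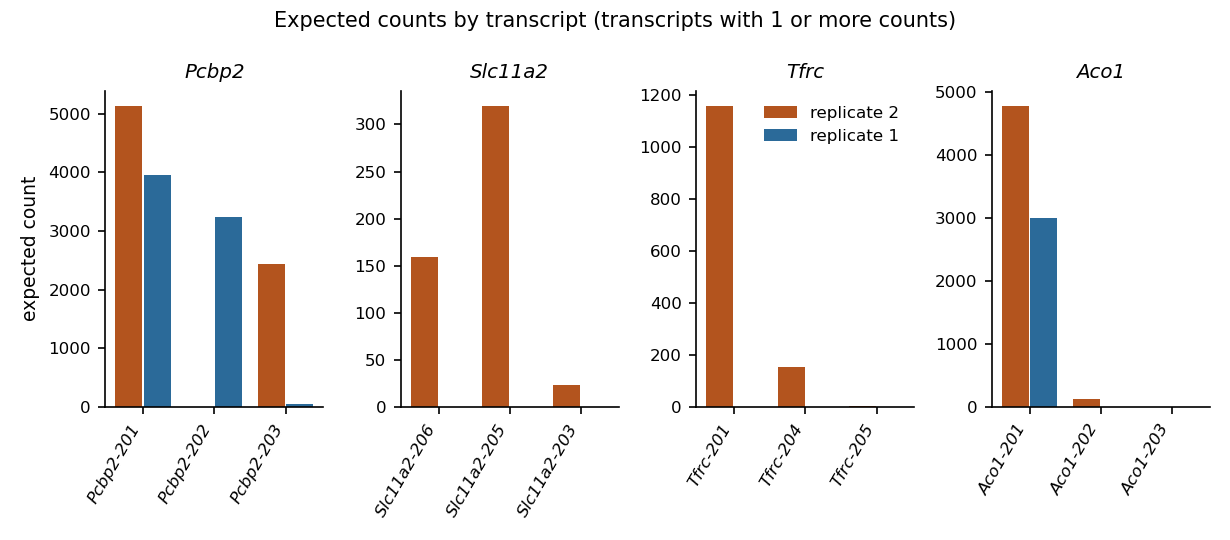
Expected counts by transcript for Pcbp2, Slc11a2, Tfrc and Aco1, with replicate 2 left of replicate 1, for transcripts with 1 or more counts in a library. Pcbp2-202 was read in replicate 1, where it had 3243 counts, while Pcbp2-203 had 2433 counts in replicate 2 and 46.9 in replicate 1.

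The other genes of iron metabolism were taken from 7 lists of 85 genes, the 10 included. Of these, 43 were read in both libraries, 19 only in replicate 2, 6 only in replicate 1 and 17 in neither. Of the 68 read at all, 63.2% were read in both, close to the 59.8% among all mouse genes, of which 25.5% were read only in replicate 2 and 14.7% only in replicate 1. Of the 59 averaging 10 or more counts, 18 were 4-fold higher and 9 were 4-fold lower in replicate 2 (45.8%, against 47.4% of all genes), and their median log2 ratio was 0.25. Without the 10 genes, 14 of 49 were 4-fold higher and 9 were 4-fold lower (46.9%), with a median of 0.20.

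Among 8 storage and delivery genes, 5 were read in both libraries. Of the 6 averaging 10 or more counts, 0 were 4-fold higher in replicate 2 and 1 was 4-fold lower. Over all genes the shares were 27.3% and 20.2%. Ncoa4, the receptor that takes ferritin to the lysosome for iron release, had 146 TPM in replicate 2 and 156 TPM in replicate 1, as steady as Pcbp2. Pcbp3, a further poly(rC)-binding protein, had 0 counts in replicate 2 and 3498 in replicate 1, at least 1431-fold lower in replicate 2. The median of the 6 was -0.18. Gaps are fewer among genes with more counts. Ftl1 and Fth1 averaged 30000 or more counts, where 0.0% of all genes were 4-fold apart, and Ncoa4 10000 to 30000, where 2.43% were. Pcbp2 averaged 3000 to 10000 counts, where 18.6% were, and Pcbp1 and Pcbp3 1000 to 3000, where 50.7% were.

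Of 16 uptake genes, only Trf, which encodes transferrin, was read in both, with 159 TPM in replicate 2 and 133 TPM in replicate 1, and 7 were read only in replicate 2, 3 only in replicate 1 and 5 in neither. Of the 11 read at all, 9.09% were read in both, against 59.8% of all genes, of which 25.5% were read only in replicate 2 and 14.7% only in replicate 1. Of those read in a single library, Steap3, Steap4, Tfr2 and Scara5 had 1 or 2 counts, which does not differ from 0 at this depth. Slc39a14 had only 8 counts, in replicate 1. Beside Tfrc and Slc11a2, the ferric reductases Steap2 and Cybrd1 had 664 and 3287 counts in replicate 2 and 0 in replicate 1. Slc39a8, a metal importer, had 0 counts in replicate 2 and 245 in replicate 1. Of the 6 averaging 10 or more counts, 4 were 4-fold higher and 1 was 4-fold lower in replicate 2 (83.3%, against 47.4% of all genes), with a median of 3.94. With genes at 0 counts set to their bound, that median was 7.29. Tfrc, Slc11a2, Steap2 and Slc39a8 averaged 100 to 1000 counts, where 77.5% of all genes were 4-fold apart. Cybrd1 averaged 1000 to 3000 counts, where 50.7% were, and Trf 3000 to 10000, where 18.6% were. Of 4 export genes, Slc40a1 was read in both libraries, though with only 1 count in replicate 1, and the other 3 in neither.

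Of 10 regulators of iron handling averaging 10 or more counts, 2 were 4-fold higher and 2 were 4-fold lower in replicate 2, which is near the 47.4% of all genes, and their median was 0.54. Skp1a and Cul1, parts of the ubiquitin ligase through which Fbxl5 marks iron regulatory proteins for decay, had 616 and 102 TPM in replicate 2 and 519 and 78.7 TPM in replicate 1. Fbxl5, the iron-sensing part, had 25.6 TPM in replicate 2 and 169 TPM in replicate 1. Nfe2l2, which turns on Hmox1 and ferritin genes under oxidative stress, had 111 TPM in replicate 2 and 22.9 TPM in replicate 1, and Keap1, its inhibitor, had 134 and 62.9 TPM. Bach1, the haem-sensing repressor of Hmox1, had 2.97 TPM in replicate 2 and 96.3 TPM in replicate 1. Hfe, which binds the transferrin receptor, had 1321 counts in replicate 2 and 0 in replicate 1.

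Of 9 haem handling genes averaging 10 or more counts, 4 were 4-fold higher, Hmox1 among them, and 1 was 4-fold lower in replicate 2 (55.6% apart, against 47.4% of all genes), with a median of 1.44. Hmox2, the constitutive haem oxygenase, had 53.5 TPM in replicate 2 and 195 TPM in replicate 1, so it was read in both libraries. Por, which supplies electrons to haem oxygenases, had 156 TPM in replicate 2 and 57.0 TPM in replicate 1. The biliverdin reductase Blvrb and Abcg2, a porphyrin transporter, had 4576 and 4473 counts in replicate 2 and 0 in replicate 1, while Flvcr1, described as a haem exporter, had 0 counts in replicate 2 and 2443 in replicate 1. The other biliverdin reductase, Blvra, had 75.4 TPM in replicate 2 and 65.6 TPM in replicate 1, and the haem transporter Slc48a1 had 62.5 and 39.7 TPM.

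The iron-sulphur cluster lists had medians near 0. Of 16 mitochondrial genes averaging 10 or more counts, 5 were 4-fold higher and 3 were 4-fold lower in replicate 2 (50% apart, median -0.10). Of 11 cytosolic ones, 2 were higher and 1 was lower (27.3% apart, median -0.02). Over all genes 47.4% were 4-fold apart. Bola3, a cluster transfer factor, had 250.5 TPM in replicate 2 and 221.5 TPM in replicate 1, and Bola2, its cytosolic relative, had 179 and 181 TPM. Nfs1, the cysteine desulphurase, had 4059 counts in replicate 2 and 0 in replicate 1, whereas Nfu1, a cluster carrier, had 0 counts in replicate 2 and 2436 in replicate 1. Glrx5, Fdx1, Fdxr and Narfl had 149, 965, 210 and 2810 counts in replicate 2 and 0 in replicate 1. Over all 7 lists, 17 genes had 0 counts in 1 library but at least 10 in the other, 13 of them read in replicate 2 and 4 in replicate 1, out of 60 with at least 10 counts in a library. Among the 11093 mouse genes with at least 10 counts in a library, 20.1% had 0 counts in replicate 1 and 11.4% in replicate 2, so the lean to replicate 2 is also that of all genes.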

How the data were processed

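RNA from 2 newborn thymus libraries of 1 group was analysed, with groups and replicate numbers taken from the labels. The deposited tables hold expected counts (estimated read counts that need not be whole) per gene and transcript, TPM and a posterior SD of the count, a score in reads. The authors' percent of gene TPM per transcript was also used. Per the labels the assembly is mm10, and the deposited notes name annotation M4. Per the file headers the columns are named as RSEM writes them, while for the aligner, the counting program and strandedness the sources used here give no name. The authors' estimate divided reads that fit several similar genes, and effective length is 99 bases below length, which inflates the TPM of very short models.

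Of 43346 mouse gene IDs, 42462 matched GENCODE M21, and the 884 others held 0.133% and 0.197% of mouse counts in replicates 2 and 1. TPM was rescaled to 1000000 over mouse genes, leaving out spike-ins and other entries. Each ratio is the log2 of (TPM + 1) in replicate 2 over that in replicate 1, a pseudocount which understates the change of low genes, and a gap of 4-fold is counted as large. Elements were searched in M21 transcripts. The members and lists were chosen with earlier results of these data known. Named genes were the 10 members, models inside a member and ferritin-named copies at 10 or more counts, up to 5 genes of each list by mean TPM, and list genes with 0 counts in 1 library but at least 10 in the other, of which not every one is described. Likeness of pattern over 2 libraries is not defined, so no gene was named for it. Marker genes outside that rule are given for the cell types they mark.

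Levels are mean ± SD of 2, with no test. Alternatives were other estimates, scalings, pseudocounts, fold thresholds, count minimums and gene models, each library alone, and counts, rounded, scaled with edgeR 4.0.16 TMM factors or DESeq2 1.42.0 size factors in R 4.3.3. Other steps used Python 3.11.15, pandas 2.3.3 and scipy 1.17.1 and were tested on simulated data.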

Additional observations from a re-analysis of the deposited data

How the results depend on the processing

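The summed level of the 10 genes ran between 6976 and 8815 TPM with each library left out, that of ferritin between 6584 and 8598 TPM, and the heavy over light ratio between 0.585 and 0.733. Under the other scalings, estimates and gene models, the ferritin sum ran between 7100 TPM (as deposited, spike-ins kept) and 7915 TPM (without mitochondrial genes). The number of genes 4-fold apart stayed at 4 under the other settings and fell to 2 with a pseudocount of 10 TPM. The median log2 ratio of the 10 genes was 0.96 without mitochondrial genes, 0.98 with a pseudocount of 0.1 TPM, 0.75 with 10 TPM, 0.97 with TMM factors and 1.02 with DESeq2 size factors. The direction of each of the 10 ratios was the same under all of these. The search for elements gave 4 genes with 5 of 5 pairs and 6 with 4 or 5, an alternative chosen after the data were seen. Of 80 single-gene levels under the alternatives, 1 moved by more than the SD of the 2 libraries (Pcbp2, as deposited, spike-ins kept). Leaving out a library shifts a mean of 2 by less than that SD, so those levels could not be counted as moved. For Tfrc, Slc11a2, Slc40a1 and Hmox1 this spread between replicates exceeds the mean, so the count does not show that their levels are firm. The log2 ratios have no such spread: 60 of 80 changed at the second decimal or before it and 0 changed sign, by at most 1.71 under another scaling or estimate (Tfrc, DESeq2 size factors) and 3.24 under another pseudocount (Slc11a2, 0.1 TPM). Of 28 shares of the dominant transcript, 4 moved, all with posterior mean estimates. Leaving out a library could not count as a move for these shares either. The shares of Fth1, Ireb2 and Pcbp1, with 1 transcript each, could not move at all. Nor could that of Hmox1-201, which was 100% in replicate 2 and 0% in replicate 1, where Hmox1 had 1 count. The 4 genes at 0 or 1 counts in replicate 1 are below the floor of 3 counts there, so the size of their difference is not fixed. No paired analysis was possible because both libraries belong to 1 group.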

Other observations

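Of 10 genes outside the set that are known or reported to carry an iron-responsive element, 3 had a match with 5 of 5 pairs in M21, 4 were read in both libraries, 2 only in replicate 2, 1 only in replicate 1 and 3 in neither, and 2 of the 6 averaging 10 or more counts were 4-fold apart. Of the 7 read at all, 57.1% were read in both, against 59.8% of all genes, and 33.3% of the 6 were 4-fold apart, against 47.4% of all genes. App, the amyloid precursor, had 55.7 TPM in replicate 2 and 73.0 TPM in replicate 1. Alas2, the first enzyme of haem synthesis in red cell precursors, had 51.6 TPM in replicate 2 and 45.3 TPM in replicate 1, and Epas1, a hypoxia-inducible factor, had 15.6 and 14.6 TPM. Slc25a37, which carries iron into mitochondria, had 10069 counts in replicate 2 and 272 in replicate 1, and was chosen here after its values were seen.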
